A study of Mus musculus with 8 samples.

Results

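The passage of wild-type mouse embryonic stem cells (ESC) to trophectoderm-like cells (TE) was measured on 4 of the 8 arrays of the study, the 2 titled ESC/Cdx2ER wt and the 2 titled TE/Cdx2ER wt. They were chosen by title. All came from male lines of mixed strain (C57BL/6;129S4Sv/Jae;129S6/SvEvTac) that carried an inducible fusion named Cdx2ER, on the plasmid pCAG-Cdx2ER-IP integrated at random sites and selected with puromycin. ESC were the cells of these lines, grown without tamoxifen per the differentiation protocol. TE were the same lines after 2 days in 30% TS medium and 70% FCM with 100 nM FGF4, heparin at 1 ug/ml and 4-hydroxytamoxifen at 1 ug/ml, and then 6 days in 100% TS medium. Per the labels, 2 independent lines were used for each genotype, but not which array holds which line, so p-values measure the spread between arrays. In the wild-type TE labels, title and genotype say wild type while another entry, on genetic modification, lists a gene knockout. The title was followed. The other 4 arrays held ESC and TE without the B-type lamins (called lamin B null) and served for the estimate of spread and as arrays outside the wild-type comparison.

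Embryonic stem cells renew themselves and can form all tissues of the embryo proper. Trophectoderm is the outer layer of the blastocyst, from which the fetal part of the placenta arises. Cdx2 is a homeobox transcription factor of that lineage, and raising its activity in embryonic stem cells drives them toward trophoblast fates. Each array carried the cells' RNA in Cy3 (green) and a common reference in Cy5 (red). The reference was 2 parts of RNA pooled from 11 mouse cell lines and 1 part of 129 ES cell RNA. Every value below is the log2 of sample over reference unless it is named otherwise, so that 1 on this scale is a factor of 2. The files name no gene for any probe, so probes are given by their identifier, and the cell types could not be checked against marker genes here.

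The sample channel was well above background for 19764 and 23906 of 42006 probes on the wild-type ESC arrays and for 26740 and 26651 on the wild-type TE arrays. The negative control spots were brighter on the ESC arrays, with a 95th percentile of 106.3 and 97.16 intensity units against 67.13 and 73.25 in TE. No spot was saturated. All ESC arrays lay on 1 slide with 1 scan time and all TE arrays on another, so cell type, slide and scan cannot be told apart by design. The reference RNA was the same on both slides, so its channel showed how single probes differed between them in Cy5. It was quantile normalized between arrays, so a shift common to all probes could not be seen. Nor could a slide difference in the Cy3 labelling or scan of the sample. In the reference channel 54 of 27359 tested probes (0.197%) passed an adjusted p of 0.05 in limma between the slides. The SD over probes of its log2 change was 0.214, against 1.32 for the sample channel scaled the same way. Across probes the 2 changes were not independent, with r = 0.31 between the change of the reference and that of the ratio.

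With loess ratios and all 8 arrays (the main fit), most tested probes differed between TE and ESC. In limma 15046 of 27359 probes (55.0%) passed an adjusted p of 0.05, 8065 higher in TE (29.5%) and 6981 lower (25.5%). Whether this was a majority depended on the fit. The share was 31% with median centring and 47.2% in the sample channel alone (quantile normalized), but 56.1% with the scanner's processed signals. With the 4 wild-type arrays alone 12277 probes were called, and with replicate number as a block 15557. Over all tested probes the typical change in the main fit was small, since 17892 (65.4%) differed by less than 2-fold. Of the called probes 60.1% changed at least 2-fold, while 3054 of the higher and 2953 of the lower differed by less. Calls of at least 2-fold made up 33.0% of the tested probes (18.3% higher and 14.7% lower) and those of at least 4-fold 11.8% (6.93% and 4.84%). Calls of at least 8-fold made up 4.19% (2.59% and 1.60%), those of at least 16-fold 1.41% (0.892% and 0.515%) and those of at least 32-fold 0.530% (0.340% and 0.190%). The number of probes fell off smoothly with the size of the change, with no separate group of strongly changed probes on either side.

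**Figure D1:**
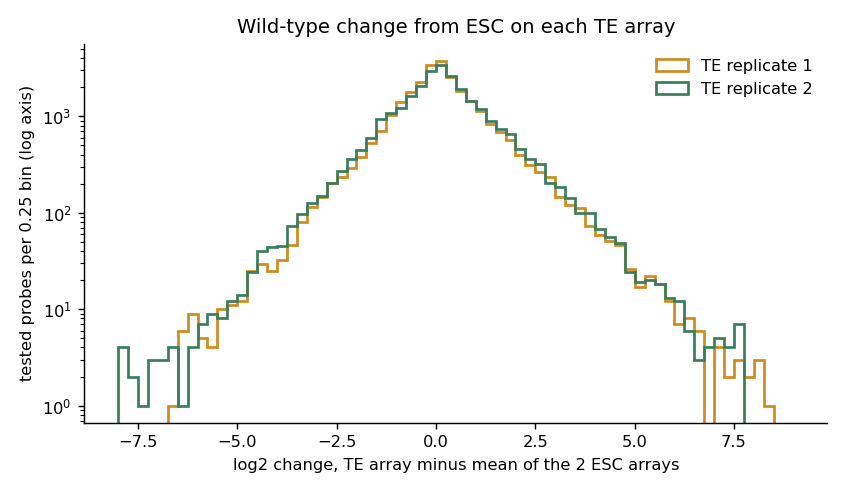
Number of tested probes (log axis) by log2 change from the mean of the 2 wild-type ESC arrays, in bins of equal width, for each wild-type TE array. Both curves have 1 peak near 0 and tails that thin out steadily on both sides, and replicate 2 reaches further down than replicate 1.

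Among probes well above background on all 4 wild-type arrays, the largest rises spanned about the same range as the largest falls. The 6 largest rises were 7.19 to 7.62 and the 6 largest falls -7.00 to -7.46. The sequences of the 3 largest rises and the 3 largest falls identify the measured transcripts in the absence of gene names (5′ to 3′, as on the array).
Z00025177-1: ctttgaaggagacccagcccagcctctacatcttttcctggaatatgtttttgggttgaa
Z00010216-1: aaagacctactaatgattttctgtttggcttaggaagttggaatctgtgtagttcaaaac
Z00023022-1: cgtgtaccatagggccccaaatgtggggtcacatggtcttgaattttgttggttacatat
Z00063643-1: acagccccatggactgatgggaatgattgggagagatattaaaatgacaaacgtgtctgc
Z00038583-1: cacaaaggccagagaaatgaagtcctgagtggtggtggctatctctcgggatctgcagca
Z00003616-1: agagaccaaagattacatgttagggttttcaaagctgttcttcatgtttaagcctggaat

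Probe Z00025177-1 stood at -5.27 and -3.74 on the ESC arrays and at 3.98 and 2.25 on the TE arrays. Its ESC arrays differed from each other by more than 2-fold, as did its TE arrays, but the cell types were far apart. It rose by 7.62 (SE 0.78, limma adjusted p = 0.000397). Probe Z00010216-1 went from -6.40 and -5.43 in ESC to 1.76 and 1.31 in TE. Probe Z00023022-1 was the tightest of the 6. It stood at -3.39 and -3.21 in ESC and at 4.10 and 4.15 in TE, a rise of 7.43 (SE 0.12, limma adjusted p = 7.91e-06), with -3.30 ± 0.13 (SD, n = 2) against 4.12 ± 0.03 (SD, n = 2). The reference signal of this probe was itself 1.29 higher on the TE slide. The rise of Z00024159-1 depended most on the reference. It was 7.39 (SE 0.40, limma adjusted p = 5.66e-05) as a ratio and 5.38 in the sample channel alone (quantile normalized), and the reference signal was 1.54 lower on the TE slide. All 6 probes lay below the reference on both ESC arrays and above it on both TE arrays.

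Probe Z00063643-1 stood at 2.54 and 2.28 on the ESC arrays and fell to -4.06 and -6.03 on the TE arrays, a change of -7.46 (SE 0.57, limma adjusted p = 0.000149). Its mean spot signal was 31550 and 42570 in ESC, 374 on TE replicate 1 and 83.43 on TE replicate 2. It was thus 3.94-fold brighter relative to the reference on TE replicate 1 than on TE replicate 2. Probe Z00038583-1 stood at 1.61 and 1.60 in ESC and at -4.88 and -6.25 in TE, a change of -7.17 (SE 0.43, limma adjusted p = 7.46e-05). Probe Z00003616-1 went from 1.75 and 1.89 to -4.68 and -5.94. In each of these 6 probes TE replicate 1 lay above TE replicate 2, while among the 6 largest rises replicate 1 was higher in 3 and lower in 3. The same 12 probes changed in the same direction on the lamin B null arrays, by 7.26 to 7.69 for the rises and by -7.02 to -7.61 for the falls.

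**Figure D2:**
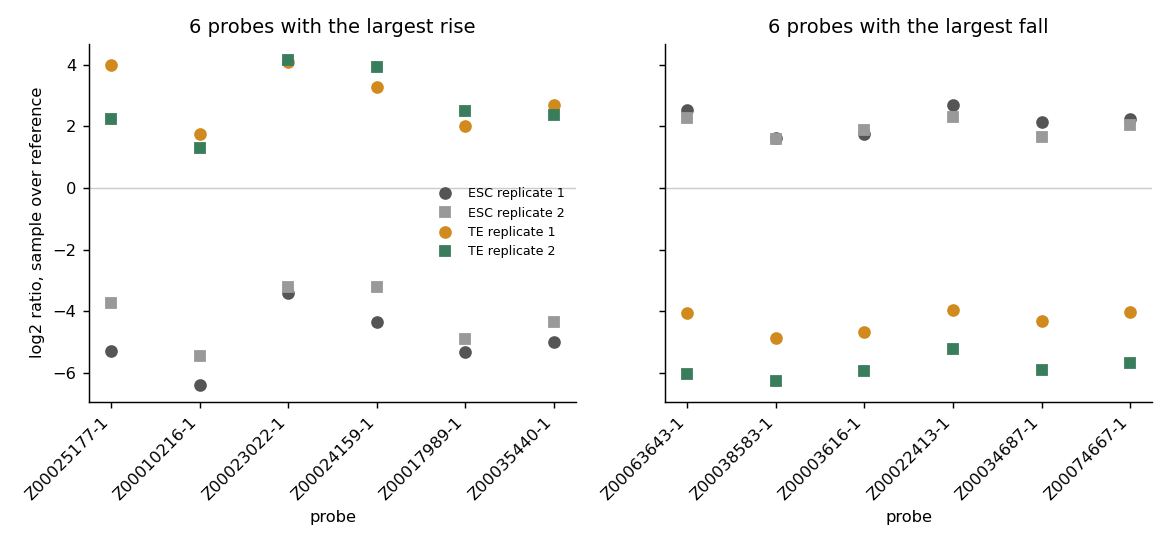
Log2 ratio of sample over reference on each wild-type array for the 6 probes with the largest rise (left) and the 6 with the largest fall (right), each a single array value with no error bar. ESC and TE values do not overlap for any of them, and on the right TE replicate 1 lies above replicate 2 in all 6.

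Whether gains outweighed losses depended on the scaling. With loess, 53.6% of the called probes were higher in TE, 58.9% of those that changed at least 4-fold (1896 against 1325) and 64.1% of those that changed at least 32-fold (93 against 52). With median centring of the ratios in place of loess, 8468 probes were called, 38.1% of them higher, and at least 4-fold changes were higher in 42.7% (1273 against 1708). In the sample channel alone, quantile normalized, 46.6% were higher, and 51.9% of those of at least 4-fold (1613 against 1495). The median change over all tested probes was 0.09 with loess, -0.09 with median centring and close to 0 in the sample channel alone, so median centring lowered that median by a log2 shift of -0.178. Among probes well above background on all 4 wild-type arrays, 48.6% of the called probes were higher with loess, and 53.0% of those of at least 4-fold. The counts of at least 4-fold changes in each direction were thus within a factor of 1.5 of each other under these 4 choices, and which was larger was not settled. At 32-fold the gap was wider with loess (93 against 52) and in the sample channel (99 higher against 61 lower). With median centring the order there was the opposite (59 against 66).

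**Figure D3:**
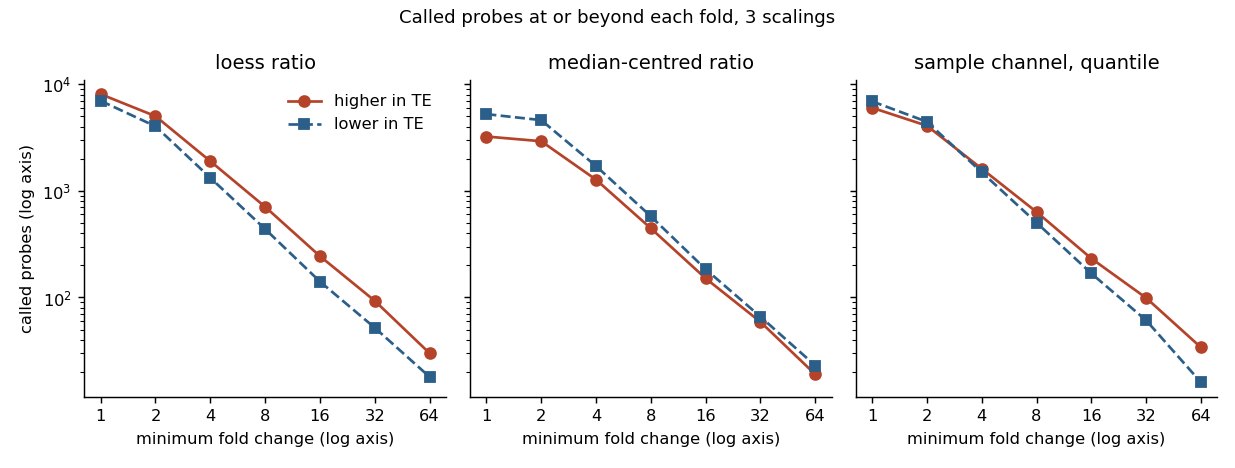
Called probes (log axis) at or beyond each minimum fold change (log axis) in wild-type TE against ESC, for the loess ratio, the median-centred ratio and the quantile-normalized sample channel. At 4-fold the higher and lower counts are 1896 and 1325, 1273 and 1708, and 1613 and 1495.

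Large rises started below the reference and large falls started above it. For the 1896 probes at least 4-fold higher in TE the median ratio was -1.54 and -1.53 on the ESC arrays and 1.27 and 1.36 on the TE arrays. In ESC 68.5% of them lay more than 2-fold below the reference, and in TE 62.3% lay more than 2-fold above it. For the 1325 probes at least 4-fold lower the median ratio was 1.22 and 1.13 in ESC and -1.51 and -1.73 in TE. In ESC 57.4% of these lay more than 2-fold above the reference, and in TE 75.2% lay more than 2-fold below it. Both sets thus crossed the reference by similar distances. These sets were chosen on the same arrays, so the positions are a description.

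The upper end of the ratios was wider in TE than in ESC. The 99th percentile was 2.12 and 2.02 on the wild-type ESC arrays and 2.62 and 3.11 on the TE arrays, while the 1st percentile was -3.88 and -3.93 in ESC and -3.33 and -3.51 in TE. By the mixing ratio in the labels, a transcript found only in ES cells and equally abundant in both ES cell RNAs would have a sample-to-reference ratio of 3, or 1.58 on the log2 scale. The mean ESC ratio exceeded this for 718 probes (2.62%) and the mean TE ratio for 1256 (4.59%). ES cell RNA is part of the reference, and whether this bears on the difference in range between the cell types was not tested. The change from ESC to TE does not depend on the reference where its signal is the same on both slides.

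By the scanner's flag and with the offset of 50, most large changes were between levels that were both above background. Of the 1896 probes at least 4-fold higher in TE, 1338 (70.6%) were well above background on all 4 wild-type arrays and 301 (15.9%) only on the TE arrays. Of the 1325 at least 4-fold lower, 1185 (89.4%) were well above background on all 4 arrays and 58 (4.38%) only on the ESC arrays. Detection on all 4 arrays was about as common in general. It held for 70.6% of all called higher probes, 86% of all called lower probes and 69.1% of all tested probes. The switch shares of 15.9% and 4.38% lay near those of all called probes, 16.7% of the higher and 3.88% of the lower. Of all tested probes 9.99% switched up and 1.04% down. That base holds both directions together, so it is not directly comparable with shares within 1 direction. With an equal number of detected probes on each array the shares of at least 4-fold changes were 25.7% and 24.0%. Under that rule 1316 of all 27359 tested probes crossed upward and 1337 downward. Among rises the switch share was 15.0% at 4- to 8-fold, 17.5% at 8- to 16-fold, 19.9% at 16- to 32-fold and 12.9% (12 of 93) over 32-fold. Among falls it was 4.85%, 4.71% and 1.12% in the same steps, and over 32-fold 0 of 52 went from signal to background and 49 (94.2%) stayed well above it. The offset lowers the fold of a probe that ends at background, so the shares by size depend on it. The largest fall of such a probe was -4.19 on the log2 scale. With the scanner's processed signals the 4 of these probes named below changed by -5.48 to -7.54.

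**Figure D4:**
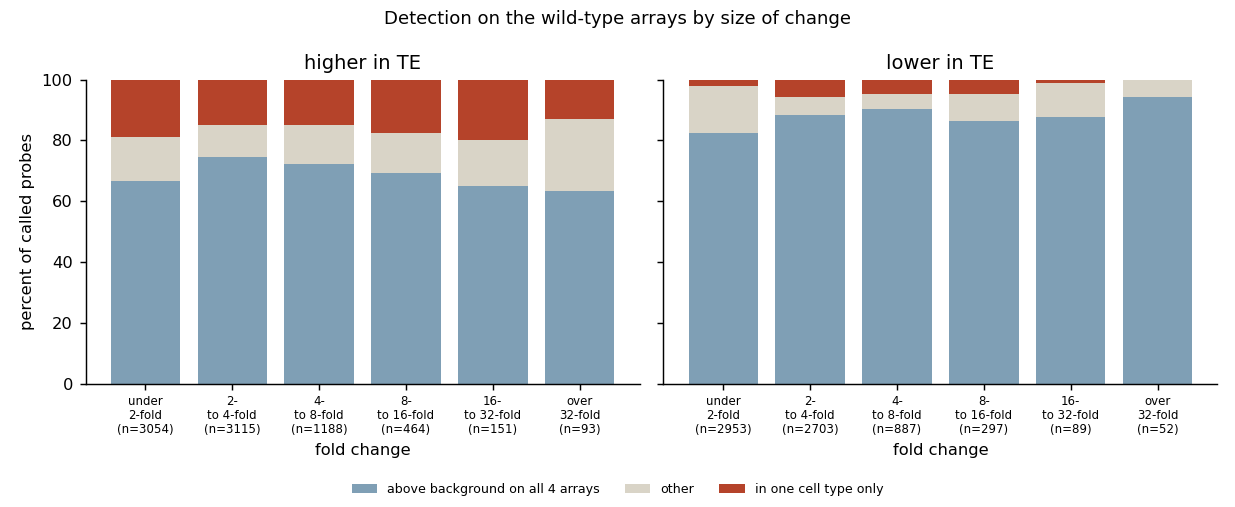
Share of called probes (percent) that were well above background on all 4 wild-type arrays, in one cell type only (neither array of the other), or in another combination, by size and direction of change with the number of probes under each bar. The share detected on all 4 arrays is 63.4% to 74.4% in the bars of higher probes and 82.5% to 94.2% in those of lower probes.

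Probes that crossed the detection limit upward changed about as little as tested probes in general. In all, 2733 tested probes were well above background on both TE arrays and on neither ESC array, with a median log2 change of 0.55, and 1881 of them (68.8%) changed by less than 2-fold, against 65.4% of all tested probes and 60.3% of those detected on all 4 arrays. The median of the lower bound of the fold, taken in the sample channel, was 1.08. In the opposite class, above background on both ESC arrays and on neither TE array, were 284 probes with a median change of -1.32, of which 73 (25.7%) changed by less than 2-fold. The dim arrays were raised to the lowest detected signal in 2716 of the 2733 upward and in 97 of the 284 downward switches, so no bound is given for the downward class. These classes use the values of the contrast itself, so no test was made on them.

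The excess of upward over downward switches rested on how detection was defined. The scanner flag for a signal positive and significant gave 772 upward and 79 downward switches, and a limit of 3 SD of the local background 156 and 486, the opposite order. Without wild-type ESC replicate 2, which leaves the array with the fewest detected probes, the upward count was 5981. The downward count was 525 without ESC replicate 1, 509 without TE replicate 1 and 447 without TE replicate 2. On the lamin B null arrays, where 61.9% and 60.5% of the probes were detected in ESC and 61.2% and 68.0% in TE, 1519 probes switched up and 640 down. Of the 2733 upward switches of the wild type, 1022 (37.4%) were upward switches there too and 690 (25.2%) were above background on all 4 lamin B null arrays. Of the 284 downward switches 165 (58.1%) recurred and 15 (5.28%) were above background on all 4. For comparison, 1519 of all 27359 tested probes switched up on the lamin B null arrays and 640 down. Of the same 27359 probes 22777 were above background on all 4 lamin B null arrays. The 19764 brightest probes of each array were then taken as detected, a choice made after seeing the data. It balances both counts by its construction. By it 488 of the 1896 rises (25.7%) and 318 of the 1325 falls (24.0%) of at least 4-fold crossed that limit. Of all 27359 tested probes 1316 crossed it upward and 1337 downward.

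The clearest examples of each switch are given by their sequence, chosen for the largest fold in the sample channel, with dim arrays raised to the lowest detected signal.
Z00010007-1: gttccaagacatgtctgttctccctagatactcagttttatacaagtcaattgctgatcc
Z00027110-1: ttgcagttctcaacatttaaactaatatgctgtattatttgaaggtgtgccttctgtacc
Probe Z00010007-1 had a mean spot signal of 95.65 and 103.5 in ESC, not well above background, and of 16210 and 3157 on the TE arrays. As a ratio it rose by 7.04 on the log2 scale (limma adjusted p = 0.000512). In the sample channel the TE level was higher by at least 97.7-fold, a bound that was not tested. Its TE arrays differed 4.50-fold, more than those of any of the 12 probes above. Probe Z00027110-1 had 2059 and 1268 in ESC and 74.40 and 75.10 in TE, where it was not well above background, and was 18.2-fold lower in TE as a ratio (limma adjusted p = 0.000826) and 18.1-fold lower in the sample channel. The next 3 upward bounds were 67.0-, 66.2- and 56.8-fold (Z00034614-1, Z00034467-1 and Z00024966-1). The next 3 downward probes were Z00056842-1, Z00027126-1 and Z00074445-1, which were 14.8-, 14.7- and 14.6-fold lower in the sample channel and 8.53-, 14.1- and 11.4-fold lower as a ratio. Downward values were computed without raising, since these 4 probes lay above the lowest detected signal on both TE arrays. Their size depended on the background treatment, as the TE signals were not well above background. With an offset of 10 in place of 50 the log2 ratio changes of the 4 were -5.15, -3.91, -5.05 and -4.44. With the scanner's processed signals they were -6.59, -5.48, -7.54 and -6.22. Their ESC signals were 800.0 to 2059 units.

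Change from ESC was smaller on TE replicate 1 than on TE replicate 2. Measured from the mean of the ESC arrays, TE replicate 1 had 1943 probes that rose and 1279 that fell 4-fold or more, and TE replicate 2 had 2172 and 1500. Both arrays had 1360 and 1050 of these in common. To follow the size of the change on probes that the wild-type arrays did not choose, the 15162 probes called between TE and ESC in limma on the lamin B null arrays alone were used. Of those higher in lamin B null TE (8287), the median change was 1.11 on wild-type replicate 1 and 1.31 on replicate 2, and 96.1% were above the ESC mean on both. Of those lower (6875), it was -1.02 and -1.23, and 97.4% were below the ESC mean on both. The median over these probes of the change on replicate 1 divided by that on replicate 2 was 0.861. With 1 array on each side this difference has no replicate check. The choice of probes was also not fully independent of the wild-type TE arrays. Across tested probes, the replicate differences in TE correlated with r = 0.516 between the genotypes. On the probes called in wild type, a choice that favours probes on which the TE arrays were alike, the same ratio was 0.925.

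The shortfall of replicate 1 was present in both directions and at every size. Replicate 1 changed less than replicate 2 in 61.1% to 65.7% of the higher probes of each size class. Among lower probes the share was 61.5% for those that fell less than 2-fold in lamin B null cells, 70.8% for 2- to 4-fold, 68.5% for 4- to 8-fold, 73.5% for 8- to 16-fold and 77.8% for 16- to 32-fold, and it held for 38 of the 40 probes that fell over 32-fold. In that last class the median signal left was 2.22% of the ESC level on replicate 1 and 1.38% on replicate 2.

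**Figure D5:**
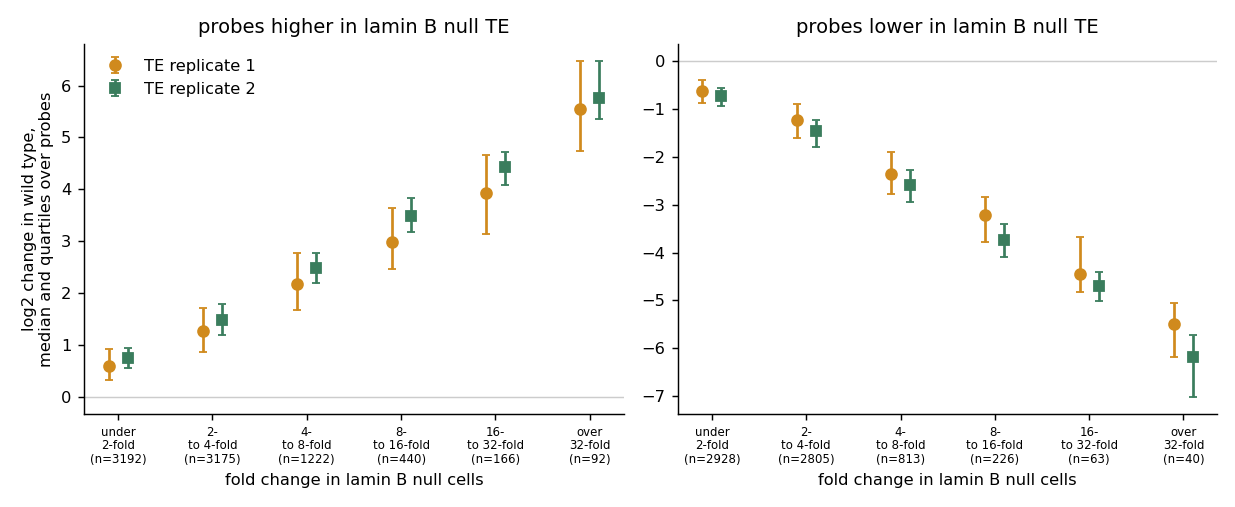
Log2 change from the ESC mean on each wild-type TE array, as the median (points) and quartiles (bars) over the probes called on the lamin B null arrays alone, by the fold change in lamin B null cells. Replicate 1 (circles) lies closer to 0 than replicate 2 (squares) in each class. Its quartiles are wider in each class of higher probes and in each class of lower probes except over 32-fold.

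No tested probe fell below 1.1% of its ESC level on TE replicate 1, against 0.286% on replicate 2. On replicate 1 there were 0 probes below 1% and 22 between 1% and 2%, and on replicate 2 there were 15 and 19. The 6 largest falls, from ESC signals that differed several-fold, all had 1.1% to 1.38% left on replicate 1 and 0.286% to 0.474% on replicate 2. On the lamin B null TE arrays the same 6 had 0.570% to 0.783% and 0.422% to 1.05% left. In the sample channel alone the lowest value was 1.14% on replicate 1 and 0.358% on replicate 2, and with the scanner's processed signals 0.424% and 0.0861%. These limits were looked at after the values were seen, and what sets them was not tested.

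Beyond this overall difference, many probes differed between the TE arrays one by one. The TE replicates were more than 2-fold apart for 2641 probes (9.65%), with replicate 1 higher in 1268 and replicate 2 in 1373, and the ESC replicates for 94. Among called probes at least 4-fold higher in TE 29.1% were that far apart, with replicate 1 higher in 282 and replicate 2 in 270. Among those at least 4-fold lower 13.6% were, with replicate 1 higher in 123 and replicate 2 in 57. Divergent gains thus went both ways, while for divergent losses the array with more signal left was mostly replicate 1. The difference between these shares was not tested.

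The probe furthest apart in each direction among called probes detected on all 4 arrays is shown by its sequence.
Z00026289-1: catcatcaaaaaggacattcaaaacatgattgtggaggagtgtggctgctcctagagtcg
Z00026506-1: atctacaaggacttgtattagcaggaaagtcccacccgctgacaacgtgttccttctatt
Probe Z00026289-1 stood at -5.11 and -5.17 in ESC, at 2.46 on TE replicate 1 and at -0.48 on replicate 2, 7.62-fold apart. It rose by 6.13 (SE 1.12, limma adjusted p = 0.00411). Probe Z00026506-1 stood at -2.50 and -2.33 in ESC, at -0.84 on TE replicate 1 and at 2.85 on replicate 2, 12.9-fold apart, and rose by 3.42 (SE 1.12, limma adjusted p = 0.0395). The call for Z00026506-1 was lost under 12 of 23 alternatives, with a change between 1.58 and 5.27 depending on the TE array left out. All 6 probes chosen for such divergence (also Z00075102-1, Z00040793-1, Z00041076-1 and Z00054025-1) lay above both ESC arrays on each TE array. The calls for Z00040793-1 and Z00054025-1 were likewise lost under 9 and 12 of 24 alternatives. The weakest calls, by change divided by SE, were slight in size, unlike that of Z00026506-1, which also lay near the threshold. Probe Z00025707-1, the weakest call upward, rose by 0.35 (SE 0.12, limma adjusted p = 0.04999), from -0.31 and -0.37 in ESC to 0.09 and -0.07 in TE. Probe Z00035704-1, the weakest downward, fell by 0.38 (SE 0.13, limma adjusted p = 0.0499), from -0.21 and -0.17 to -0.42 and -0.71. The next weakest were Z00076513-1, which rose by 0.74, and Z00054725-1, which fell by 0.61.

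The probe sequences of gains and losses had similar base composition. Median GC content was 45.0% over all tested probes, 43.3% for those at least 4-fold higher and 43.3% for those at least 4-fold lower. The hexamers AATAAA or ATTAAA, the letters of the polyadenylation signal, occurred in 10.8% of the tested probes and their reverse complements TTTATT or TTTAAT in 5.43%. They were found in 13.6% of the probes at least 4-fold higher (258 probes) and in 11.7% of those at least 4-fold lower (155 probes), with 6.17% and 5.36% for the reverse complements. These shares are descriptions of the probes and carry no test.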

How the data were processed

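Total RNA was measured on 8 two-colour Agilent arrays, 2 per group, with cell type and genotype taken from the titles. Per the file headers, the authors used Agilent Feature Extraction 9.5.1.1 to extract spot values (protocol GE2-v5_95_Feb07). The deposited files hold spot and local background intensity on a linear scale, processed intensity values (background-subtracted, detrended and dye-normalized) and 0 or 1 flags for detection and outliers. They also hold a deposited log10 ratio of red over green. A deposited table of 25030 features holds log10 values. How it was made is not given in these sources. Set against the scanner files, they followed the mean log10 reference signal minus each array's log10 ratio (r of 0.9998 to 1 on each array, column medians 2.27 to 2.33).

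Here, normexp background correction (offset 50) and loess within arrays were run in limma 3.58.1 (R 4.3.3), with control and outlier spots left out of the loess fit, and ratios were expressed as log2 of green over red. Spots were averaged per probe (7 of 42006 probes had more than 1). A probe was tested if well above background in the sample channel on both arrays of at least 1 of the 4 groups (27417). Probes with an outlier spot (58) were not tested. TE minus ESC in wild type was tested with lmFit and eBayes on all 8 arrays (4 residual degrees of freedom) and Benjamini-Hochberg adjustment at 0.05, and the fit was tested on simulated data. A probe not well above background in one cell type has a fold given as a lower bound if an array was raised as follows. This bound divides the bright group's mean sample channel level (loess, then Aquantile) by the dim group's, after raising each dim array to its lowest signal among probes well above background where the probe lay under that. Where no array was raised, it is the fold as computed with the offset of 50. There were no dye swaps, and a dye bias was not tested. Array number limits the precision.

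Named probes were the 6 largest rises and 6 largest falls among called probes detected on all 4 wild-type arrays whose TE and ESC values did not overlap, the 4 largest such folds of each switch, the 3 called probes detected on all 4 arrays with the widest TE replicate difference each way, and the 2 weakest calls each way. Members and rules were chosen with earlier results of these data known. A list of marker genes could not be applied, as no probe is named in the files. Normexp left lamin B null TE replicate 2 with a high lowest signal (1st percentile 7.88 on the log2 scale, against 5.77 to 5.87 on the other arrays). This array enters the spread and the choice of probes by which TE replicates were compared.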

Additional observations from a re-analysis of the deposited data

How the results depend on the processing

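Against 15046 called probes, median centring gave 8468 and the deposited values 9884 (of 17083 tested probes), and the other settings, single arrays left out included, stayed within 1.5 times. Some of these counts were no majority of the 27359 tested probes, such as 12277 with the 4 wild-type arrays alone and 13161 with array weights. Others were, such as 15343 with processed signals. The share of called probes higher in TE (53.6%) was 38.1% with median centring, 46.6% in the sample channel with quantile and 48.6% with detection required on all 4 wild-type arrays, which turns the balance. It was 50.4% with loess and Aquantile (sample channel), 51.6% with processed signals, 52.0% with deposited values, 52.3% with the 4 wild-type arrays alone, 52.5% at an adjusted p under 0.01, 54.5% with array weights, 54.6% with an offset of 10, and 51.8% to 55.1% with single arrays left out. For changes of at least 4-fold (58.9%) it was 42.7% with median centring, which turns the balance. It was 51.9% in the sample channel with quantile, 53.0% with detection on all 4, 54.6% with processed signals, 55.4% with loess and Aquantile, 56.1% with deposited values, and 56.2% to 60.2% with single arrays left out. Processed signals raised the at least 4-fold counts to 3063 higher and 2548 lower.

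Upward and downward switches (2733 and 284) were 772 and 79 with the flag for a positive and significant signal, 156 and 486 with 3 SD of background, 1316 and 1337 with equal numbers of top-ranked probes, which was chosen after seeing the data, and 2756 to 5981 and 288 to 525 with single arrays left out. The median ratio of change between TE replicates (0.861) was 0.874 with median centring, 0.872 with deposited values and 0.925 on probes called in wild type. The cause was not tested for any of these shifts, and single arrays left out or stricter detection also mean fewer data. With the replicate number as a block 15557 probes were called. The numbers did not pair ESC with TE (r = 0.0787 between the replicate differences of wild-type ESC and TE, across probes). The 30 named probes kept their direction in all 704 combinations with an alternative and missed the threshold in 101, all of them of the 3 divergent probes named as losing their calls and the 4 weakest calls. Slide as a block could not be fitted, since it coincides with cell type.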

Other observations

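Replicates of the same number differed in part alike in both genotypes. Across the tested probes the difference between replicates 1 and 2 correlated with r = 0.516 between the genotypes in TE and with r = 0.641 in ESC, and with r = 0.0787 between wild-type ESC and TE. These are correlations across probes, which are not independent replicates.

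A further 42 probes changed at least 4-fold between wild-type ESC and TE without passing an adjusted p of 0.05 in limma. All 42 had TE replicates more than 2-fold apart, with replicate 2 higher in 33 and replicate 1 in 9. The ESC replicates were that far apart in 4 of them. A change of this size misses the threshold only where replicates spread widely, so wide replicate differences follow from how these probes were chosen.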
